A study of Mus musculus with 24 samples.

Results

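*E2f7* and *E2f8* were deleted from mouse liver by 2 routes, and the 14 whole-liver RNA-seq libraries taken at 0 h, before any acetaminophen, were used to find genes that differed from control in the same direction under both. These 14 libraries of 24 in the series hold 1 mouse each, 7 knockout and 7 control. In the HKO cohort, *E2f7/E2f8* floxed mice received an AAV8-TBG-Cre virus at 2 months of age (HKO, n = 3), and their controls, which carry the same floxed alleles, received AAV8-TBG-Null (n = 3). In the LKO cohort, floxed mice of a mixed, mostly FVB background carried an inherited Alb-Cre transgene (LKO, n = 4), and littermates without Cre were the controls (n = 4). According to the study's methods, LKO mice and their littermates also carry the R26R-mTmG Cre reporter on both alleles, and the reporter was read in HKO livers as well. All mice were male, 2.5 months old and fasted for about 16 h. The thyroxine-binding globulin (TBG) promoter limits Cre to hepatocytes in HKO, whereas inherited Alb-Cre is also active in the fetal precursors shared by hepatocytes and bile duct cells, so the remaining liver cell types keep both genes. By the study's account LKO livers hold mostly diploid hepatocytes whereas HKO livers stay polyploid. The comparison asks which part of the baseline profile follows the loss of both genes whatever its timing and whatever the ploidy of the liver. In both cohorts every knockout received or carried Cre and no control did. Effects of Cre itself, of reporter recombination and of the loss of both genes cannot be told apart here.

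E2F7 and E2F8 are atypical E2F factors: they bind DNA without a DP partner and repress E2F target genes late in the cell cycle. In liver they are known for driving the change from diploid to polyploid hepatocytes after weaning. Most adult hepatocytes do not divide, and much of their transcription follows feeding, hormones and the circadian clock.

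The libraries held 12665686 to 19046197 reads on genes (median 16494577), so 3 counts, taken as the lowest level that can be read, equal 0.158 to 0.237 CPM, that is counts relative to library size, which takes in counting error alone. The first principal component (29.9% of the variance) separated the cohorts. On the second (18.3%), LKO_control replicates 2 and 3 and LKO replicate 1 stood apart from the other LKO-cohort mice. Several results that change without these 3 libraries are given both ways. Unmapped reads made up 12.0%, 20.6% and 13.5% of these 3 libraries against 4.11% to 7.20% in the other LKO-cohort mice, and 8.95% to 12.5% in HKO controls against 5.72% to 7.25% in HKO mice. Their part in the results was not tested. The 7 hepatocyte markers summed to 41700 to 111000 CPM over the libraries, while markers of pancreatic acinar cells and lung epithelium summed to at most 57.3 and 10.6 CPM and those of intestine and gallbladder to 44.8 to 110 CPM. The lung sum did not overlap between HKO controls (5.95 to 10.6 CPM) and HKO mice (4.22 to 5.34 CPM). In it *Sftpc*, a lung surfactant protein, had 0.789, 0.948 and 1.12 CPM in HKO controls, 0, 0 and 0.0652 CPM in HKO mice and 0 in the LKO cohort, and its call as lower in HKO was lost without any 1 HKO control or HKO replicate 2 (adjusted p = 0.0745 to 0.102, edgeR). The 100 most abundant genes took 34.7% to 39.6% of reads in the knockouts and 38.1% to 41.3% in the controls. TMM scaling factors, which offset such a shift, did not overlap (0.995 to 1.09 in knockouts, 0.946 to 0.991 in controls). Scaling by library size instead moved the median log2 fold change of all genes from 0.00 to 0.11, so fold changes are given on the TMM scale, and directions that depend on this choice are marked. In whole liver, a change in RNA per cell and a change in the number of cells of a type cannot be told apart.

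The deposited count of *E2f8* covers the whole gene (GRCm38, chromosome 7, 48866429 to 48881596, minus strand), so exons outside the deleted part are included and the value does not check the deletion. The HKO controls had 18.0, 25.9 and 14.6 CPM of *E2f8* and the HKO mice 52.1, 82.3 and 30.2 CPM. The LKO controls had 18.3, 17.6, 15.8 and 11.4 CPM and the LKO mice 21.5, 25.6, 33.4 and 17.3 CPM. HKO mice lay above all their controls, while the lowest LKO mouse overlapped with controls. Over all genes tested, the groups did not overlap in 17.7% in the HKO cohort and 1.8% in the LKO cohort. With cohort as a block, the log2 fold change of *E2f8* was 1.01 (SE 0.24, adjusted p = 0.209, edgeR's quasi-likelihood test, 7 knockout and 7 control mice), 1.5 in HKO and 0.63 in LKO. A 2-sided exact permutation test that relabels mice within cohorts gave p = 0.00429 for this gene, where the smallest p possible was 0.00143. *E2f7* (chromosome 10, 110745439 to 110787384) had between 2 and 22 raw counts per library, and no difference was detectable at this depth (log2 fold change −0.53, SE 0.53, exact permutation p = 0.336).

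*Gt(ROSA)26Sor*, the Rosa26 locus that holds the Cre reporter, was the single gene that passed edgeR's test in the shared fit, while DESeq2 called 43 genes (25 higher and 18 lower), limma-voom 0 and an edgeR fit that weights the cohorts equally 19 (11 higher and 8 lower). It rose in knockouts, with a log2 fold change of 1.82 (SE 0.26, adjusted p = 0.0393), 1.66 in HKO and 1.95 in LKO, and it was 1 of 12945 genes tested, which is 0.00772%. Its levels were 0.546, 0.677 and 1.43 CPM in HKO controls and 3.33, 1.45 and 3.65 CPM in HKO mice. They were 0.914, 1.10, 0.667 and 0.891 CPM in LKO controls and 4.16, 2.70, 3.10 and 4.01 CPM in LKO mice. No knockout overlapped with a control of its cohort, although HKO replicate 2 and HKO_control replicate 3 were almost equal, and the exact permutation p of 0.00143 is the smallest the design allows. The gene (chromosome 6, 113067428 to 113077333, minus strand, antisense biotype) overlaps *Thumpd3* on the opposite strand by 846 of its 9906 bases, and the counts are low, 8 to 23 reads in controls and 23 to 76 in knockouts. The 2 stranded columns, which cannot separate the strands of these libraries, gave log2 fold changes of 0.88 and 0.88 that did not pass. The call was also lost on leaving out HKO_control replicate 1 or 2, HKO replicate 1 or 3, LKO replicate 2 or any 1 LKO control, with the log2 fold change between 1.74 and 2.03 throughout. Without the 3 libraries that stood apart it was 1.74, and *Fitm1*, *Snhg11* and *Ces2c* (−1.01, −2.54 and −1.07) passed instead. How far recombination of the reporter sets this count was not tested.

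No other gene passed in the edgeR fit. At an unadjusted p under 0.05, 600 genes (4.63% of those tested) were higher and 492 (3.80%) lower in knockouts, a split that library size scaling turned to 1642 higher and 135 lower. At an adjusted p under 0.1 there were 2 genes, and under 0.2 there were 29. The genes with the smallest p-values are therefore described by their values and are not edgeR calls. Of the 12 with the smallest p in each direction, DESeq2 called 11 that were higher (all but *Pnkd*) and 7 that were lower (*Maff*, *Per1*, *Nrg4*, *Por*, *Coq10b*, *Ptp4a1* and *Fam46c*), and the fit with equal weights 8 and 2. A call also needs a 1.5-fold change, which *Pnkd*, *Cipc*, *Lrrc58*, *Trib1* and *4931406C07Rik* did not reach in the shared edgeR fit whatever their p. DESeq2 also called *E2f8* (adjusted p = 0.0103).

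Among the genes higher in both knockouts, *Pnkd*, a hydrolase-like gene known from a familial movement disorder, came second (log2 fold change 0.48, SE 0.08, adjusted p = 0.0876). It had 61.6, 67.1 and 66.1 CPM in HKO controls against 106, 98.1 and 100.1 CPM in HKO mice. Its levels in the LKO cohort were 94.4, 92.2, 84.8 and 103 CPM in controls against 132, 124, 108 and 116 CPM in LKO mice. The groups did not overlap in either cohort. *Tjp3*, which encodes the tight junction scaffold ZO-3, had 14.7, 13.1 and 14.3 CPM in HKO controls and 25.4, 28.7 and 25.6 CPM in HKO mice. Its LKO controls had 22.3, 19.7, 17.7 and 21.9 CPM and its LKO mice 39.4, 34.6, 23.8 and 23.7 CPM. *Tjp3* was again higher in every knockout than in any control of its cohort (log2 fold change 0.72, SE 0.12, adjusted p = 0.108).

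*Spon2*, a secreted matrix protein, had 6.01, 4.27 and 4.98 CPM in HKO controls and 19.5, 24.3 and 20.0 CPM in HKO mice. In LKO controls *Spon2* had 6.63, 4.96, 8.01 and 7.31 CPM, and in LKO mice 10.6, 16.9, 8.80 and 8.71 CPM. The groups stood clear of each other in both cohorts, but the log2 fold change was 2.06 in HKO and 0.75 in LKO. *Npnt* (nephronectin, an integrin ligand of basement membranes) had 1.03, 2.10 and 2.43 CPM in HKO controls and 6.72, 7.23 and 4.37 CPM in HKO mice. It had 0.686, 0.138, 0.0834 and 0.951 CPM in LKO controls and 1.01, 1.91, 1.81 and 1.58 CPM in LKO mice, of which 2 control values lie below the level of 3 counts. Its log2 fold change was 1.72 in HKO and 1.68 in LKO, similar although the level differed between the cohorts. Other genes in this group were *Map4k4*, a kinase upstream of JNK (log2 fold change 0.71), *St5* (0.83), the acyltransferase *Acnat2* (1.33), the ubiquitin ligases *Rnf144a* (1.32) and *Dtx4* (0.89), the Arf GTPase-activating protein *Asap2* (1.29) and *Fam131c* (1.00), with adjusted p-values of 0.154 to 0.201.

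*Serpina7*, which encodes thyroxine-binding globulin, had 1.03, 0.880 and 0.934 CPM in HKO controls and 4.52, 7.48 and 3.91 CPM in HKO mice. *Serpina7* had 10.2, 7.44, 12.4 and 16.1 CPM in LKO controls and 10.00, 21.4, 23.9 and 30.8 CPM in LKO mice. The HKO mice stood clear of their controls, and LKO replicate 1 lay among the LKO controls (shared log2 fold change 1.40, SE 0.30, adjusted p = 0.198). A promoter of this protein's gene drives the virus in both HKO mice and HKO controls.

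Among the genes lower in both knockouts, *Maff*, a small Maf transcription factor, had 11.5, 18.1 and 10.3 CPM in HKO controls and 7.85, 6.91 and 4.43 CPM in HKO mice. LKO controls had 24.8, 37.7, 25.4 and 29.5 CPM of *Maff* and LKO mice 20.6, 9.38, 11.3 and 14.2 CPM. It had no overlap in either cohort and nearly the same log2 fold change in each, −1.05 in HKO and −1.08 in LKO (shared −1.07, SE 0.19, adjusted p = 0.108). *Per1*, a repressor of the circadian clock, had 116, 141 and 109 CPM in HKO controls and 93.1, 56.6 and 46.1 CPM in HKO mice. Its LKO controls had 87.4, 108, 79.7 and 97.0 CPM and its LKO mice 78.8, 55.8, 62.4 and 65.3 CPM. *Per1* did not overlap between groups either, with only a narrow gap in the LKO cohort (shared log2 fold change −0.68, SE 0.15, adjusted p = 0.198).

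*Cipc*, which encodes a protein that binds CLOCK, had 69.5, 75.0 and 58.4 CPM in HKO controls and 51.6, 44.9 and 38.5 CPM in HKO mice. It had 49.3, 63.7, 66.1 and 49.2 CPM in LKO controls and 43.8, 39.1, 44.1 and 42.3 CPM in LKO mice. Again every knockout lay below every control of its cohort (log2 fold change −0.50, SE 0.10, adjusted p = 0.154). *Nrg4*, a secreted ligand of the ErbB family, had 21.7, 19.5 and 15.6 CPM in HKO controls and 10.5, 3.96 and 4.30 CPM in HKO mice. *Nrg4* had 5.49, 13.9, 15.9 and 9.92 CPM in LKO controls and 5.37, 5.35, 6.09 and 5.91 CPM in LKO mice, where LKO_control replicate 1 overlapped with the knockouts. *Por*, the reductase that supplies electrons to cytochrome P450 enzymes, had 1381, 1180 and 1157 CPM in HKO controls and 914, 712 and 496 CPM in HKO mice. Of *Por*, LKO controls had 588, 945, 592 and 694 CPM and LKO mice 602, 425, 465 and 450 CPM, with LKO replicate 1 among the controls. Their log2 fold changes were −1.25 for *Nrg4* and −0.65 for *Por*. Further genes in this direction were the coenzyme Q-binding *Coq10b* (−1.08), the pseudokinase *Trib1* (−0.47), the phosphatase *Ptp4a1* (−0.72), *Lrrc58* (−0.44), the poly(A) polymerase *Fam46c* (−0.96) and the heme-regulated repressor *Bach1* (−0.50), with adjusted p-values of 0.189 to 0.259.

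**Figure D1:**
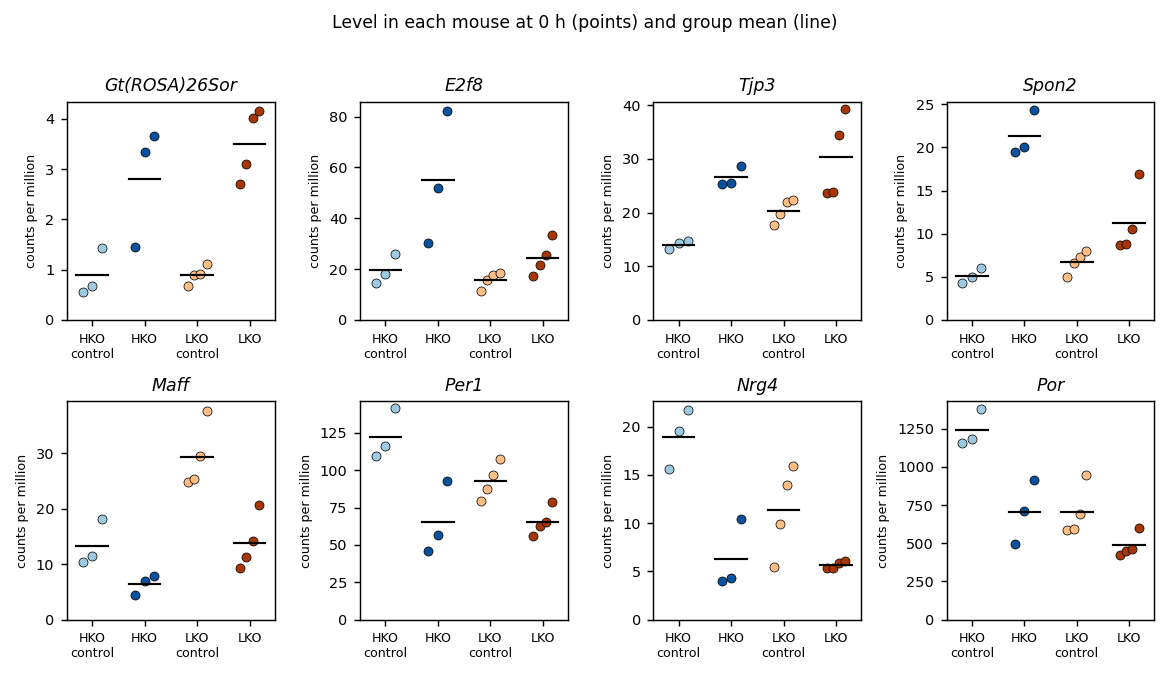
Level of 8 genes in each of the 14 mice at 0 h (y axis, CPM of TMM-scaled libraries, starting at 0; x axis, group). Points are mice and lines are group means. *Gt(ROSA)26Sor*, *Tjp3* and *Spon2* are higher, and *Maff* and *Per1* lower, in every knockout than in any control of the same cohort, while *E2f8*, *Nrg4* and *Por* overlap in the LKO cohort.

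The promoters of the genes named for the shared effect were searched for 3 elements on both strands: the E-box CACGTG, which CLOCK and BMAL1 and other basic helix-loop-helix factors bind, the D-box TTATGTAA or TTACGTAA, bound by PAR-bZIP factors, and the E2F forms TTTCCCGC, TTTGGCGC and TTTCGCGC. None of these elements overlaps another in the windows shown. Windows ran from 250 bases before to 50 after the transcription start in RefSeq annotation of GRCm38.p6, and 23 of 29 genes had one. The E-box was in a window of 7 of the 12 genes that were lower (58.3%) and 1 of the 11 that were higher (9.09%, *Tjp3*), against 11.7% of tested genes with a window and 7.15% of all promoters in the table. The D-box was in 2 of the 23 (8.70%), *Coq10b* and *4931406C07Rik*, against 0.932% of tested genes and 1.06% of all promoters. No E2F form was found in these 23, against 3.96% of tested genes and 1.84% of all promoters, which says only that these letters are not in these windows. A match describes the letters in the window and does not show that a factor binds there. The genes were picked for their change, and the difference between the lower and higher genes was seen after the search and has no test. The following 5 windows are shown because they hold the E-box of genes whose levels are given above or, in *Coq10b*, both elements. Each is given from 5′ to 3′ on the strand of its gene, the elements are in capitals, and the first base of the E-box lies at −166 from the start for *Per1* (chr11:69098699-69098998, plus strand), −17 for *Cipc* (chr12:86947093-86947392, plus), −78 for *Coq10b* (chr1:55052520-55052819, plus, with TTACATAA, the D-box read on the other strand, at −162), −191 for *Maff* (chr15:79347270-79347569, plus) and −55 for *Tjp3* (chr10:81291218-81291517, minus).
Per1: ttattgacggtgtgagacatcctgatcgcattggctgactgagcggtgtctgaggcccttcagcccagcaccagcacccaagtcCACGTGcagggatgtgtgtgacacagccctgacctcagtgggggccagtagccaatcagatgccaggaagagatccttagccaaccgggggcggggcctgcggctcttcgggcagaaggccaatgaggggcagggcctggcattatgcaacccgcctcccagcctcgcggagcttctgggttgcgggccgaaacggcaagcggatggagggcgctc
Cipc: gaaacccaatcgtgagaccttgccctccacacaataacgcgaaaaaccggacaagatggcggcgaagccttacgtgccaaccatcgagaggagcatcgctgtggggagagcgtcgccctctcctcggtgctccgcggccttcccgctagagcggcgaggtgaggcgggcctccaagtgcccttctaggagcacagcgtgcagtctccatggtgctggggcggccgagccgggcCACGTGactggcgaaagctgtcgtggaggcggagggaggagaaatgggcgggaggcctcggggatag
Coq10b: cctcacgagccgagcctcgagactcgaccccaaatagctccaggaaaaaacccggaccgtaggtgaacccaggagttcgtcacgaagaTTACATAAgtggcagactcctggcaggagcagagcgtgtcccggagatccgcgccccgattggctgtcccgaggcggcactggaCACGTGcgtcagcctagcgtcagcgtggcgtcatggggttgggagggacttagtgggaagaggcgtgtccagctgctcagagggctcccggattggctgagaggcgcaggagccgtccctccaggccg
Maff: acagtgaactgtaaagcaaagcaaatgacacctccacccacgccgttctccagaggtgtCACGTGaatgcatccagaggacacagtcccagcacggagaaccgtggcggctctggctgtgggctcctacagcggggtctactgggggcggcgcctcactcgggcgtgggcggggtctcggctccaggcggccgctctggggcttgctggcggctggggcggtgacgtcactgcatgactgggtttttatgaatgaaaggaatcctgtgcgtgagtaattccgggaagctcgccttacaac
Tjp3: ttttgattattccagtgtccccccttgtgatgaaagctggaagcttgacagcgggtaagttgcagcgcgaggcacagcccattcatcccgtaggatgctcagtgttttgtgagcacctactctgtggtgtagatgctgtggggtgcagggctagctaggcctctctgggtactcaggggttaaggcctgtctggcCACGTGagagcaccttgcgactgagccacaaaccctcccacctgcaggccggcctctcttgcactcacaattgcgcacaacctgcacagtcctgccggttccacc

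The 2 cohorts share no mouse, so each can be read against the other. Fitted alone, HKO against control gave 119 called genes of 12397 (0.960%), 52 higher and 67 lower, and 54 without HKO_control replicate 1, 56 without HKO_control replicate 2 and 297 without HKO replicate 1. DESeq2 called 331 and edgeR without a filter on low counts 255. LKO against control gave 0 calls of 12426 (0%) by edgeR's quasi-likelihood test, with 352 genes at an unadjusted p under 0.05 and a smallest adjusted p of 0.257, and DESeq2 called 3 and limma-voom 0. Of the 117 HKO-called genes that were also tested in LKO, 93 (79.5%) had the same sign there, 40 of 51 that rose in HKO and 53 of 66 that fell. Over all 12138 genes tested in both cohorts the same-sign share was 57.0%. These genes were picked by their HKO effect, so its median size of 1.09, against 0.27 in the same direction in LKO (log2), is a description, and over all genes the median sizes were 0.15 and 0.13. In LKO, 14 of the 117 (12.0%, against 2.83% of all genes) had an unadjusted p under 0.05, all with the HKO sign. Across genes, which are not independent replicates, the log2 fold changes of the cohorts had a Pearson r of 0.24 and a Spearman rho of 0.20.

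At an unadjusted p under 0.05 in both cohorts' own fits, 82 genes were found, and 70 of them (0.577% of genes tested in both) had the same sign, 45 higher and 25 lower, against 12 of opposite sign. Under library size scaling this split was 118 higher and 6 lower. Of the 70, 35 reached 1.5-fold in both cohorts, 49 had the larger effect in HKO (57.1% of all genes), and the median size was 0.89 in HKO and 0.67 in LKO (log2). Without LKO_control replicate 2 the 70 became 39 (26 higher and 13 lower) and without LKO replicate 2 they became 44 (29 and 15). Without LKO_control replicate 4 there were 115 (58 and 57) and without LKO replicate 1 there were 109, with the split turned to 36 higher and 73 lower. Without the 3 libraries that stood apart, a check added after the data had been seen, there were 46 (21 higher and 25 lower), of which 21 belonged to the original 70. The groups did not overlap in 2296 genes of the HKO cohort (17.7%) and 233 of the LKO cohort (1.8%). Separated in the same direction in both were 41 genes (0.317%), 24 higher and 17 lower, against 10 in opposite directions. Among the 41 were *Anxa5*, *Usp2*, *Cyp27a1*, *H2-Q4* and *Peli3* besides the genes given above.

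The effect of the knockout differed between the cohorts in 0 genes (0%) by edgeR's quasi-likelihood test of the difference, with 579 at an unadjusted p under 0.05, a smallest adjusted p of 0.0739, 21 calls by DESeq2 and 0 by limma-voom. The cohorts also differ in hepatocyte ploidy, the virus and the age at deletion, which cannot be told apart here, and the genetic background of the HKO cohort is not given in the sources used here. Genes with the smallest p for a more positive effect in LKO were *Cux2*, a transcription factor gene with female-biased liver expression (log2 difference 5.03), *Acbd4* (0.95), *Ggt6* (0.97, 0.01 in the shared fit under library size scaling against −0.10), *Upp2* (1.64) and *Usp2* (2.87). *Cux2* had 13.7, 17.8 and 40.9 CPM in HKO controls against 1.37, 1.57 and 1.24 CPM in HKO mice, but 0.334 to 1.43 CPM in LKO controls and 0.336 to 2.90 CPM in LKO mice. The HKO controls thus had far more *Cux2* than any other group. More negative in LKO were *Egr1* (−2.65), *St5* (−1.13), *Avpr1a* (−1.82), *Zfp868* (−1.58) and *Slc30a10* (−1.24). *St5* had 16.3, 15.8 and 18.1 CPM in HKO controls and 42.0, 48.3 and 50.04 CPM in HKO mice, and in the LKO cohort 22.9, 22.8, 23.5 and 23.9 CPM in controls and 25.4, 35.4, 30.5 and 27.5 CPM in knockouts. *St5* was higher in every knockout than in any control of its cohort, by 1.49 in HKO and 0.35 in LKO (log2), and the difference did not pass (adjusted p = 0.0739, edgeR).

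**Figure D2:**
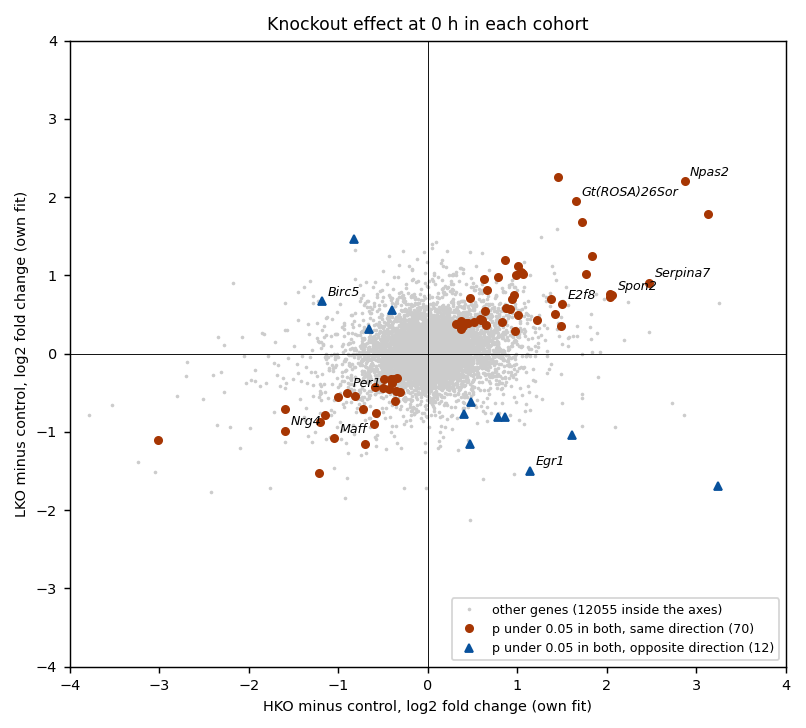
Log2 fold change of each gene in HKO (x axis) and LKO (y axis), each from its own fit at 0 h, for 12137 genes inside axes of ±4. Orange circles are the 70 genes at an unadjusted p under 0.05 in both with the same sign, of which 45 lie at upper right and 25 at lower left (118 and 6 under library size scaling), and blue triangles are the 12 of opposite sign.

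The circadian clock runs on activators (CLOCK or NPAS2 with BMAL1, encoded by *Arntl*) that switch on their own repressors (PER and CRY) and output factors such as DBP. The lists of clock genes were chosen with earlier results of these data known, so they are described by counts and medians alone. Of 21 core clock genes tested, 13 were lower and 3 higher in both cohorts, and the median log2 fold change was −0.35 (−0.62 in HKO and −0.26 in LKO), against 0.00 for all genes. At an unadjusted p under 0.05, 9 were lower and 2 higher (3.80% and 4.63% of all genes), and no member passed after adjustment by edgeR, while DESeq2 called *Npas2*, *Per1* and *Per2* (adjusted p = 0.00249, 0.00807 and 0.0174) and the fit with equal weights *Per2* (0.0335). Of 19 clock output genes, 13 were lower and 2 higher in both cohorts, with a median of −0.49 (−0.67 and −0.34), and 12 were lower and 1 higher at an unadjusted p under 0.05. DESeq2 called 4 of these as lower (*Por*, *Alas1*, *Ccrn4l* and *Upp2*), the fit with equal weights 4 as lower and 1 as higher, and edgeR none. Fitted alone, HKO had 7 core clock and 8 output genes among its calls, which made up 0.960% of all genes. Both medians stayed negative under library size scaling (−0.24 and −0.38) and without the 3 libraries that stood apart (−0.44 and −0.47). With library size scaling they were −0.54 and −0.59 in HKO and −0.12 and −0.20 in LKO.

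Among the activators *Arntl* rose in HKO, from 3.09, 2.44 and 4.23 CPM to 11.8, 18.3 and 16.3 CPM (log2 fold change 2.24, adjusted p = 0.00346 in the cohort's own edgeR fit). In the LKO cohort *Arntl* was at 3.49, 2.41, 8.42 and 2.32 CPM in controls and 12.3, 8.11, 3.56 and 1.95 CPM in knockouts, so LKO replicates 1 and 2 were high and replicates 3 and 4 were not. *Npas2*, the partner of BMAL1 that can replace CLOCK, had 0.364, 0.136 and 0.747 CPM in HKO controls and 1.07, 4.09 and 4.24 CPM in HKO mice. *Npas2* had 0.114, 0.0689, 0.667 and 0.416 CPM in LKO controls and 3.09, 1.64, 0.339 and 0.686 CPM in LKO mice, again with the same 2 LKO mice highest. Its shared log2 fold change was 2.53 (SE 0.56, adjusted p = 0.198; 0.0866 in the HKO cohort's own edgeR fit), with control counts near the level of 3 counts.

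*Per2* fell in HKO, from 56.4, 60.1 and 60.3 CPM to 24.9, 13.1 and 18.1 CPM (−1.66, adjusted p = 0.00541 in the cohort's own edgeR fit). Its LKO controls had 39.8, 38.0, 30.03 and 31.0 CPM and its LKO mice 23.6, 14.6, 38.0 and 28.0 CPM. *Dbp*, an output factor that binds the D-box, fell in HKO from 94.0, 103 and 74.2 CPM to 24.6, 6.10 and 10.8 CPM (−2.70, adjusted p = 0.0176), a call that was lost without HKO_control replicate 1 or 2 (adjusted p = 0.0722 and 0.0748, edgeR). LKO controls had 123, 82.7, 29.3 and 115 CPM of *Dbp*, and LKO mice 44.5, 27.7, 98.8 and 116 CPM. In the LKO cohort both genes overlapped, with replicates 1 and 2 low and LKO_control replicate 3 also low for *Dbp*. Among the output genes, *Ccrn4l*, which encodes nocturnin, had a log2 fold change of −2.51 in HKO and −0.58 in LKO, and *Usp2*, a deubiquitinase, −3.53 and −0.66. *Alas1*, the first enzyme of heme synthesis, had −1.01 and −0.56. The HKO effect was the larger in 18 of 21 core genes and 16 of 19 output genes (57.1% of all genes), and 7 in each list had an unadjusted p under 0.05 for the difference (4.47% of all genes), none after adjustment by edgeR. The hour at which livers were taken is not given in the sources used here, so a shift of clock phase between groups that were collected at different hours and an effect of the knockout cannot be told apart.

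**Figure D3:**
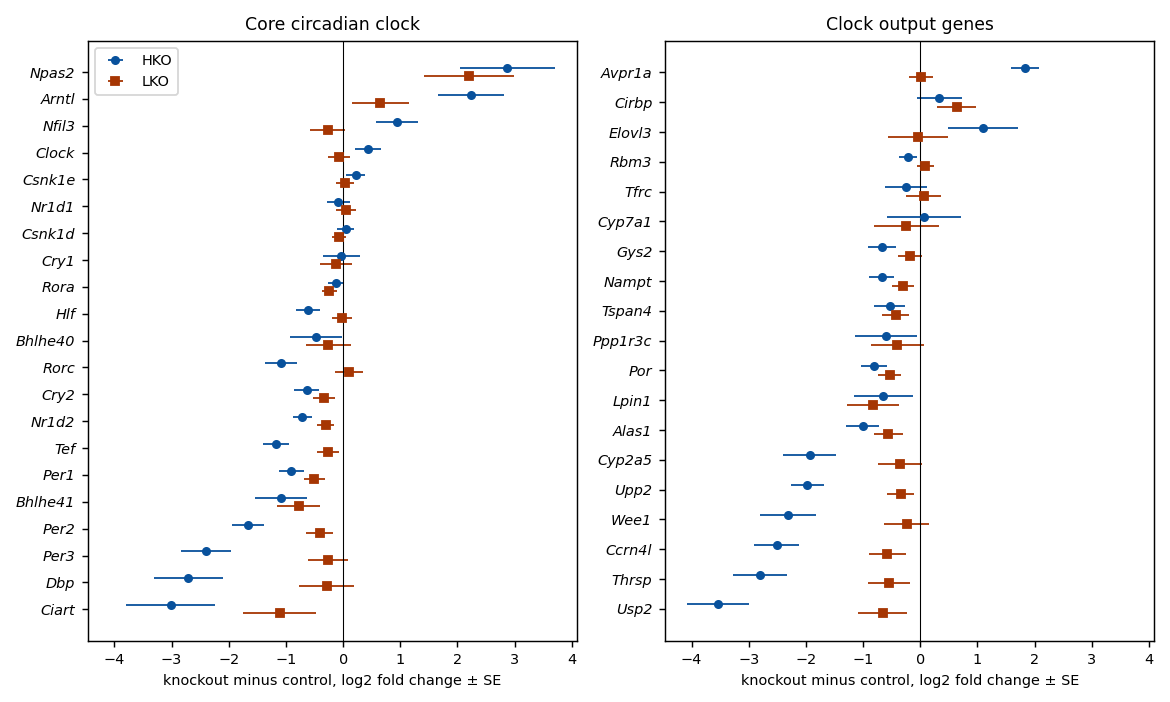
Log2 fold change of each clock gene, knockout minus control, with its standard error, in HKO (blue circles) and LKO (orange squares) from the joint fit of 14 mice; left, 21 core clock genes, right, 19 output genes. Most points lie left of 0 in both cohorts, *Npas2* and *Arntl* lie to the right, and the HKO point is farther from 0 in 18 and 16 genes.

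Interferon-stimulated genes carry the antiviral response, and their products sense, degrade or present viral material. Of 34 tested, 27 were higher and 0 lower in both cohorts, 14 were higher and 0 lower at an unadjusted p under 0.05, and the median log2 fold change was 0.36 (0.51 in HKO and 0.25 in LKO). Of all 12945 genes, 3806 were higher and 3551 lower in both cohorts, and 4.63% were higher at that limit. No member passed after adjustment by edgeR in the shared fit, and DESeq2 called *Irf7* (adjusted p = 0.0300). Fitted alone, HKO had 1 edgeR call in the list, *Irf1*, as higher. *Irf7*, a transcription factor of the response, had 17.1, 23.4 and 18.4 CPM in HKO controls and 28.8, 22.0 and 42.1 CPM in HKO mice. *Irf7* had 28.7, 20.8, 18.2 and 24.1 CPM in LKO controls and 48.5, 22.3, 39.1 and 51.5 CPM in LKO mice (shared log2 fold change 0.75, SE 0.18, adjusted p = 0.256). One knockout of each cohort lay among the controls. *Ifi44* had a log2 fold change of 1.07, *Usp18*, which removes ISG15 from proteins, 0.72, the chemokine *Cxcl10* 0.85 and *Irf1* 0.46. By mouse, the median of the list relative to the cohort's controls was −0.11, 0.21 and 1.08 in HKO and 0.37, −0.03, 0.51 and 0.19 in LKO, against −0.18 to 0.25 in controls (log2). HKO replicate 3 stood highest, and without it the list's shared median was 0.18 and the 14 became 6. The median was 0.39 without the 3 libraries that stood apart and 0.48 under library size scaling. Markers of T and NK cells, which also make and answer interferons, had a higher sum in the knockouts too: 6 of 7 were in the files and none was at 0 in all libraries. Of the 5 tested, 3 were higher and 0 lower in both cohorts, 1 had an unadjusted p under 0.05 (*Cd3e*), and none had groups without overlap in either cohort. The 6 markers summed to 7.19, 2.64 and 6.38 CPM in HKO against 1.74 to 2.24 CPM in controls, and to 3.29 to 4.76 CPM in LKO against 1.72 to 2.91 CPM in controls. *Cd3e*, the T cell receptor subunit, made up 6.01 CPM of this sum in HKO replicate 1 and 3.32 CPM in HKO replicate 3, and had 0.212 to 1.02 CPM in LKO mice. HKO replicate 1 had the highest sum and the lowest interferon median of the HKO mice, whereas LKO replicate 2 was the lowest of the LKO mice in both. Markers of B and plasma cells (6 of 6 in the files) summed to 3.21, 6.79 and 4.56 CPM in HKO against 2.73 to 3.59 CPM in controls, and to 4.29 to 8.13 CPM in LKO against 4.46 to 5.92 CPM in controls. Neutrophil markers (7 of 8) summed to 6.01, 1.19 and 0.391 CPM in HKO against 0.125 to 0.728 CPM, and to 0.846 to 5.90 CPM in LKO against 1.2 to 6.65 CPM. No marker of either list was at 0 in all libraries, and both sums overlapped with controls in both cohorts. The part of these cells in the interferon genes was not tested, and HKO controls received a virus as well, though without Cre.

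Genes with male-biased expression in liver, which depend on the pulses of growth hormone in males, had a median below 0. Of 30 tested, 21 were lower and 1 higher in both cohorts, with a median of −0.48 (−0.47 in HKO and −0.69 in LKO), and 9 were lower and 0 higher at an unadjusted p under 0.05 (3.80% and 4.63% of all genes). The 9 became 3 under library size scaling, 4, 3 and 5 without LKO_control replicate 2, LKO_control replicate 3 and LKO replicate 2, and 14, 19 and 17 without LKO_control replicate 1, LKO_control replicate 4 and LKO replicate 1. *Mup20*, a major urinary protein that acts as a male pheromone, had 8557, 8210 and 9646 CPM in HKO controls and 3403, 4352 and 2714 CPM in HKO mice. In the LKO cohort *Mup20* had 3248, 10770, 23530 and 3000 CPM in controls and 9187, 1480, 5504 and 3334 CPM in knockouts. The HKO groups did not overlap, whereas the LKO groups did, and the high LKO controls are replicates 2 and 3, which stood apart. Without the 3 such libraries the median of the list was −0.31, with 14 of 30 lower in both cohorts. Reads of *Mup* genes are shared among near-identical copies, so their levels are uncertain. Fitted alone, HKO had 5 edgeR calls in the list (0.960% of all genes), *Mup15*, *Mup20*, *Mup21* and *Ugt2b38* lower and *Elovl3* higher. *Mup20* was also called lower in the pools after acetaminophen (log2 fold change −1.13, adjusted p = 0.0417, edgeR). How that call depends on single pools was not tested. *Cyp2d9*, a male-biased P450, had a log2 fold change of −0.31, and *Gstp1*, a glutathione transferase, −0.46.

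Genes of gluconeogenesis and fasting were lower in both cohorts in 13 of 22 and higher in 2, with a median of −0.24 (−0.45 in HKO and −0.15 in LKO), and at an unadjusted p under 0.05 8 were lower and 1 higher (3.80% and 4.63% of all genes). Under library size scaling the 8 became 4 and the LKO median −0.01. The 8 became 5 without HKO_control replicate 2, HKO replicate 3, LKO_control replicate 2 or LKO replicate 4. *Klf15*, a transcription factor of amino acid breakdown, had a log2 fold change of −0.47, the transaminases *Got1*, *Gpt2* and *Tat* −0.66, −0.42 and −0.81, and the hormone *Fgf21* 0.87. *Fgf21* was higher although the list's median was lower. Of 19 genes of acetaminophen bioactivation and conjugation, 12 were lower and 0 higher in both cohorts (median −0.18), but under library size scaling 4 were lower and 1 higher (median −0.08). The P450 gene *Cyp3a13* led them, at −1.30 in HKO, where it fell (adjusted p = 0.00205 in the cohort's own edgeR fit), and −0.23 in LKO. For the shared effect DESeq2 (−0.70, adjusted p = 0.0410) and the fit with equal weights (−0.77, adjusted p = 0.0190) called *Cyp3a13* as lower. The main edgeR fit did not. Pericentral genes were lower in both cohorts in 14 of 21 (median −0.19) and periportal genes in 11 of 20 (median −0.15, −0.30 in HKO and −0.02 in LKO). With library size scaling these medians were −0.07 and −0.05, and the LKO median of the periportal list turned to 0.11. In both cohorts 11 pericentral genes were then lower and 4 higher, and 5 periportal genes lower and 4 higher. *Cyp27a1*, a sterol hydroxylase of bile acid synthesis, was lower in every knockout (log2 fold change −0.32). Cytosolic heat shock genes were lower in both cohorts in 14 of 22 (median −0.23), among them the chaperones *Dnaja1* (−0.46), *Hsph1* (−0.54) and *Hspa8* (−0.42). For this last list the median was −0.10 without the 3 libraries that stood apart.

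E2F factors are known to regulate genes of S phase and mitosis, and no member of either list passed in the shared fit by edgeR or DESeq2. Of 58 genes of DNA replication and S phase tested, 25 were higher and 10 lower in both cohorts, with a median of 0.11 (0.00 in HKO and 0.19 in LKO), and 7 were higher and 3 lower at an unadjusted p under 0.05 (4.63% and 3.80% of all genes). Under library size scaling 16 were higher and 0 lower, and without HKO replicate 1 there were 11 higher and 1 lower. Of 26 genes of G2/M and mitosis, 14 were higher and 4 lower in both cohorts, with a median of 0.26 (0.14 and 0.39), and 2 were higher and 0 lower at that limit (4 and 0 under library size scaling, and 1 to 3 higher on leaving out 1 mouse). Under library size scaling the medians were 0.21 and 0.37, against 0.11 for all genes. The S phase median was 0.06 without LKO replicate 4 and 0.07 without the 3 libraries that stood apart, and that of G2/M 0.18 and 0.22. *Tk1*, the thymidine kinase of S phase, fell in HKO, from 33.9, 32.8 and 42.9 CPM to 14.4, 17.0 and 19.0 CPM (log2 fold change −1.12, adjusted p = 0.00927 in the cohort's own edgeR fit), and had 19.1 to 48.5 CPM in LKO controls and 23.8 to 48.9 CPM in LKO mice. *Uhrf1*, which recruits the maintenance DNA methyltransferase, had 0.364, 0.203 and 0.249 CPM in HKO controls and 0.119, 0.503 and 0.391 CPM in HKO mice, close to the level of 3 counts. LKO controls had 0.343, 0.413, 0.250 and 0.654 CPM of *Uhrf1* and LKO mice 1.88, 1.17, 0.846 and 2.59 CPM, which did not overlap. *Dnmt1*, the methyltransferase itself, had log2 fold changes of 0.32 in HKO and 0.38 in LKO. *Mcm7*, a subunit of the replicative helicase, had 0.42 and 0.17, and *Top2a*, the topoisomerase of mitosis, 0.90 and 0.87 at levels under 2.28 CPM. Of 17 E2F family members and partners, 3 were higher and 7 lower in both cohorts and the median was −0.00, with *E2f8* (1.01), *E2f2* (0.92) and the DP partner *Tfdp1* (−0.27) at an unadjusted p under 0.05 (4.63% of all genes higher and 3.80% lower). Under library size scaling 8 were higher and 3 lower in both cohorts, the median was 0.10, and *Tfdp1* no longer had an unadjusted p under 0.05. Without the 3 libraries that stood apart 6 were higher and 4 lower, with a median of 0.01.

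**Figure D4:**
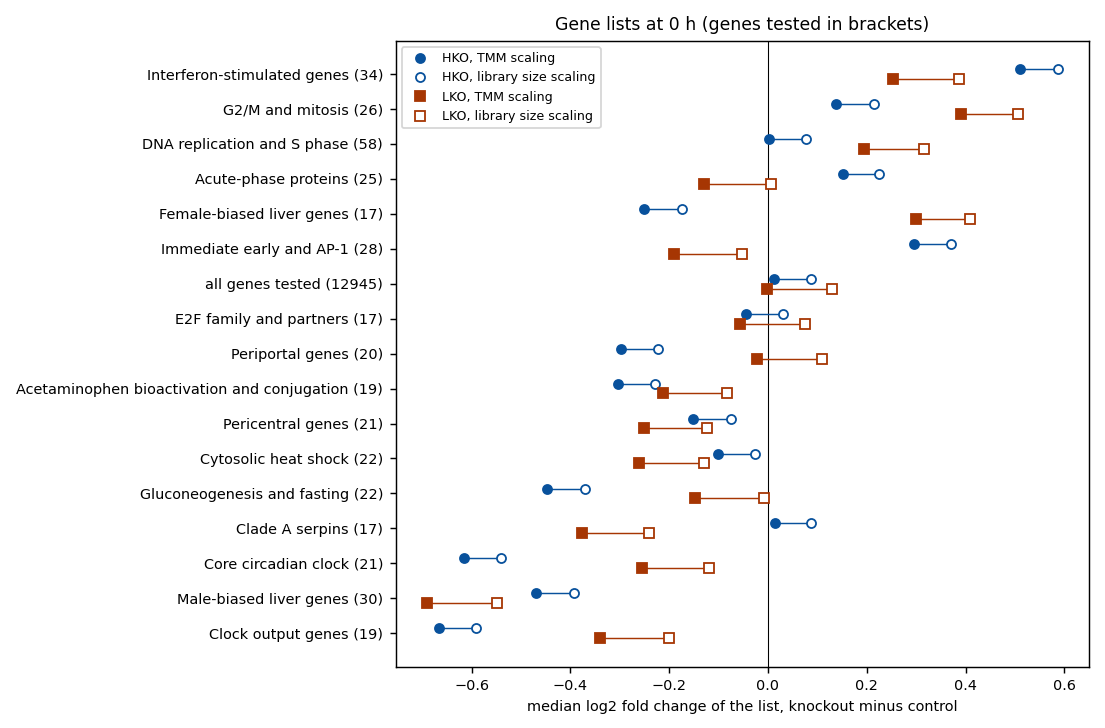
Median log2 fold change, knockout minus control, of 16 gene lists and of all genes tested at 0 h in HKO (blue circles) and LKO (orange squares), with TMM scaling (filled) and library size scaling (open). Clock, male-biased, acetaminophen, pericentral and heat shock lists lie left of 0 and the interferon and G2/M lists right of 0 in both cohorts under both scalings. The gluconeogenic list lies left of 0 but at −0.01 in LKO with library size scaling. The DNA replication list lies at 0.00 in HKO with TMM scaling and right of 0 otherwise, while the E2F family, periportal and acute-phase lists and all genes cross 0 in at least 1 cohort under library size scaling.

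The 10 pooled LKO and control libraries taken 12 to 96 h after 300 mg/kg acetaminophen were not used by the rule that names the genes. Each pool holds RNA of 3 mice, with 1 pool of each genotype per time, and the time point was a block in the test. Over all 12782 genes tested, 74 were called (0.579%), but 9 to 18 without the pools of 12, 24, 48 or 72 h and 177 without those of 96 h. Of the 70 genes with an unadjusted p under 0.05 and the same sign in both cohorts at 0 h, 44 (62.9%) had the same direction in the pools, 15 of them at all 5 times. Of all 6856 genes with the same sign in both cohorts, 49.8% did. At an unadjusted p under 0.05 in the pools, 17 of the 70 had the same direction and 2 the opposite one (27.1% together, against 17.9% of all genes). The pools come from the LKO cohort and from other mice than those of 0 h, and their livers were injured.

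*E2f8*, *Serpina7* and *Maff* were called in the pools in their 0 h direction. *E2f8* rose by 1.53 on the log2 scale (SE 0.21, adjusted p = 0.0237 by edgeR), with 1.75, 1.77, 2.09, 1.09 and 0.88 at 12, 24, 48, 72 and 96 h. *Serpina7* rose by 1.56 (SE 0.24, adjusted p = 0.0299), with 1.27, 1.91, 2.40, 1.68 and 0.63 at the same times. *Maff* fell by 1.52 (SE 0.26, adjusted p = 0.0417), with −1.02, −1.38, −2.90, −1.12 and −1.24. All 3 had the 0 h direction at every time point, and their calls were lost without the pools of 12 or 24 h, *E2f8* and *Serpina7* also without 48 h, and *Serpina7* and *Maff* also without 72 h (adjusted p = 0.0673 to 0.120, edgeR, where lost). *Gt(ROSA)26Sor* was also higher at all 5 (log2 fold change 1.75, adjusted p = 0.0743), as was *Pnkd* (0.54, adjusted p = 0.163), and *Ptp4a1* was lower at all 5 (−0.87, adjusted p = 0.123). *Spon2*, *Npnt* and *Nrg4* did not keep one direction, and *Cipc* was higher at 12 to 48 h. Of the lists, interferon-stimulated genes had a median of 0.05 in the pools and core clock genes −0.05, while the male-biased list stayed lower (−0.21, 8 lower and 1 higher at an unadjusted p under 0.05) and the acetaminophen and pericentral lists were higher (0.37, 5 higher and 0 lower, and 0.59, 9 higher and 1 lower), against 7.96% of all genes higher and 9.91% lower at that limit in the pools. The medians of gluconeogenesis and periportal genes were also above 0 there (0.20 and 0.22), that of G2/M below 0 (−0.17), and those of S phase and heat shock genes 0.01 and 0.03.

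**Figure D5:**
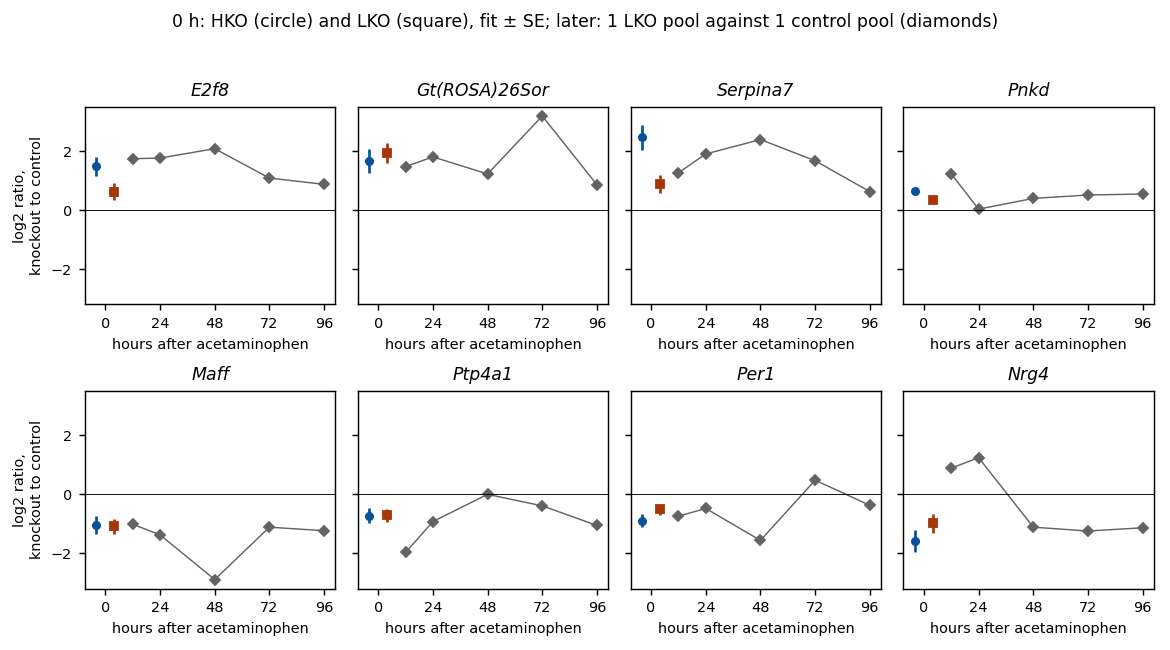
Log2 ratio of knockout to control for 8 genes (y axis) against hours after acetaminophen (x axis); at 0 h the circle is HKO and the square LKO, each with its standard error from the joint fit of 14 mice, and later diamonds are 1 LKO pool against 1 control pool without replicates. *E2f8*, *Gt(ROSA)26Sor*, *Serpina7* and *Pnkd* lie above 0 and *Maff* and *Ptp4a1* below 0 at every time, while *Per1* and *Nrg4* cross 0.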

How the data were processed

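Whole-liver RNA of 14 single mice at 0 h and of 10 pools of 3 mice at 12 to 96 h was sequenced. The authors ran Trimmomatic and then STAR on the mm10 genome, and deposited the read counts per gene that STAR writes, not normalized. The annotation version is not given in the sources used here. The deposited files hold 3 columns of counts for 24411 genes, and the column that disregards strand was used, since the stranded columns split reads about evenly (50.1% to 50.4%). STAR's 4 summary entries were dropped, of which reads outside genes made up 12.6% to 14.7% of HKO-cohort and 8.47% to 10.7% of LKO-cohort libraries. Reads that map to several genes are not counted, so near-identical genes are uncertain.

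The main tool was edgeR 4.0.16 in R 4.3.3. After its filterByExpr filter and TMM scaling, 2-sided quasi-likelihood tests were run, adjusted by Benjamini-Hochberg over all genes of a fit. The authors used DESeq2, which is an alternative here (1.42.0), as is limma-voom (3.58.1). Calls needed an adjusted p under 0.05 and a 1.5-fold or larger change, which are the study's limits. The shared fit had cohort as a block. Further fits gave each cohort its own effect and the difference, each cohort alone, and the pools with time as a block. Coordinates are from GENCODE on GRCm38 (38 of 39 named genes matched) and promoters from RefSeq (GRCm38.p6). Scripts were tested on simulated data.

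The comparison, its gene lists and its tests were chosen with earlier results of these data known, so lists are described by counts and medians without a test. Named genes are the label checks, called genes or, in their place, up to 12 of each direction with the smallest p and the same sign in both cohorts, the 10 of each direction with the smallest p in both own fits, up to 4 members of each list described, and 5 of each direction for the difference. *Arntl*, *Per2*, *Dbp*, *Ccrn4l*, *Usp2*, *Cd3e* and other genes outside this rule were added after their values were seen. The numbering of replicates was checked as a pairing. Values of the authors' own comparisons, protein and histology were not used here.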

Additional observations from a re-analysis of the deposited data

Results flagged for a closer look

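Chance alone meets Dixon's criterion in about 1 of 20 groups. By it, 1 mouse lay far from the other 3 in 2 of the 78 groups of 4 mice that were tested. Both were *Trib1*, with 121.7 CPM in LKO_control replicate 2 against 97.1 to 98.6 CPM in the other LKO controls, and 101.6 CPM in LKO replicate 1 against 66.2 to 70.4 CPM in the other LKO mice. Both are among the 3 libraries that stood apart.

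For 3 of the 39 named genes, the groups did not overlap in either cohort but stood in opposite order, as in 10 of all 12945 genes tested (0.0772%). All 3 were named for their small p for the difference, so the pattern is a description. *Acbd4* was lower in HKO (24.2 to 32.5 CPM against 35.0 to 41.0 CPM) and higher in LKO (47.2 to 54.7 CPM against 28.4 to 38.1 CPM), a difference of 0.953 between the log2 effects, LKO minus HKO (adjusted p = 0.220, edgeR). *Ggt6* was lower in HKO (11.9 to 15.2 CPM against 17.9 to 25.97 CPM) and higher in LKO (19.9 to 23.1 CPM against 15.6 to 19.4 CPM), a difference of 0.968 (adjusted p = 0.38, edgeR). *Egr1*, an immediate early gene, was higher in HKO (35.1 to 61.3 CPM against 15.3 to 23.0 CPM) and lower in LKO (8.66 to 17.2 CPM against 24.7 to 52.4 CPM), a difference of −2.646 (adjusted p = 0.0739, edgeR).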

How the results depend on the processing

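The shared fit called 1 gene, 4 with library size scaling, 43 with DESeq2, 19 when the 2 cohort effects were averaged with equal weight, 0 with at least 10 counts in every library (which removes *Gt(ROSA)26Sor*), 0 and 0 with the stranded columns, 0 with limma-voom and 0 to 5 on leaving out 1 mouse. Without the 3 libraries that stood apart, a setting added after the data had been seen, it called 3. RLE scaling, no filter on low counts, no fold change limit and no cohort block gave 1 each. The HKO fit called 119 genes, 255 without a filter, 331 with DESeq2 and 54 (without HKO_control replicate 1) to 297 (without HKO replicate 1) on leaving out 1 mouse. The LKO fit called 0, 3 with DESeq2 and 0 to 1 on leaving out 1 mouse. The difference had 0 calls, 2 without a filter, 21 with DESeq2 and 0 to 3 on leaving out 1 mouse. The 70 genes shared by both own fits were 124 with library size scaling, 39 to 115 on leaving out 1 mouse and 46 without the 3 libraries. The same-sign share of HKO calls was 72.3% to 79.8% over the scalings, filters, count columns and DESeq2. It was not computed for limma-voom, the replicate block or on leaving out mice. Under library size scaling it was 75.8%, against 62.7% of all genes. The pools gave 74 calls, 606 with DESeq2 and 9 (without 12 h) to 177 (without 96 h) on leaving out 1 time. The cause of these shifts was not tested.

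Over 1003 comparisons for 86 genes, 957 kept direction and side of the threshold, 38 newly passed (28 of them with DESeq2), 6 lost the call (all *Gt(ROSA)26Sor*: limma-voom, both stranded columns, the replicate block, without the 3 libraries, and leaving out 1 mouse, counted once) and 2 turned: *Ggt6* to 0.00995 with library size scaling and *Acbd4* to −0.0103 without the 3 libraries. Only *Gt(ROSA)26Sor* was called in the main shared fit, so for every other gene keeping its side meant staying uncalled. Leaving out 1 mouse entered by the lowest and highest fold change of each gene alone. The groups of a cohort share replicate numbers, but same-numbered mice did not deviate together (correlations −0.05 to 0.17 in HKO and −0.37 to 0.22 in LKO), so the numbers do not pair the mice. With the replicate block the shared fit called 0 genes, the HKO fit 263, the LKO fit 0 and the difference 0, and 71 genes were shared by both own fits. Levels lie near 3 counts for *E2f7* in several libraries, for *Npas2* in several controls and for *Uhrf1* in the HKO cohort. The T and NK cell markers summed to at most 7.19 CPM. Each group holds 3 or 4 mice. How far depth and group size limit the results was not tested.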

Other observations

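Some lists had medians of opposite sign in the cohorts. Of 28 immediate early and AP-1 genes, 5 were higher and 5 lower in both cohorts, the median was 0.30 in HKO and −0.19 in LKO, and 9 had an unadjusted p under 0.05 for the difference between the cohorts (4.47% of all genes). In the LKO pools after acetaminophen, 23 of 29 were lower and 0 higher at an unadjusted p under 0.05, with a median of −0.93 (9.91% of all genes were lower and 7.96% higher there). Of 17 genes with female-biased liver expression, 4 were higher and 3 lower in both cohorts, with medians of −0.25 in HKO and 0.30 in LKO. The shared median, 0.05, was −0.23 without LKO replicate 2, 0.22 without LKO_control replicate 4 and −0.02 without the 3 libraries that stood apart, and in the pools 10 of 16 were higher and 0 lower (median 1.01). In the LKO cohort the female-biased and male-biased lists had medians of opposite sign in every mouse but LKO_control replicate 1 (−0.25 and −0.24). LKO_control replicate 4 had list medians of 1.09 and −1.08 relative to the mean of the controls, LKO replicate 2 had 1.17 and −1.49, and LKO_control replicate 3 had −0.49 and 0.98. Of 17 clade A serpins, 7 were lower and 1 higher in both cohorts, with medians of 0.01 in HKO and −0.38 in LKO. Their shared median was −0.24, and −0.07 without the 3 libraries that stood apart, where 5 were lower and 3 higher. Acute-phase genes had medians of 0.15 in HKO and −0.13 in LKO, and the LKO value was 0.01 with library size scaling. Of these 25 genes, 5 were higher and 3 lower in both cohorts, and 9 and 2 without the 3 libraries (shared medians 0.07 and 0.12). None of these lists had a member that passed edgeR's test in the shared fit, while DESeq2 called *Maff*, *Serpina7* and *Serpina1d*, and the fit with equal weights *Maff* and *Serpina7*.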
